A study of Mus musculus with 24 samples.

Results

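Schwann cells wrap axons of the peripheral nerve in myelin, and 30 genes of that programme are described here in sciatic nerve, out of 24421 genes in the count table. The 30 were named by symbol, for what their products do in myelin or in the myelinating cell. No measured value enters that rule, but the list was drawn up with earlier results of these libraries known. They comprise 12 structural and membrane proteins of myelin, 7 junction and adhesion proteins, 4 lipid enzymes, 3 transcription factors and 4 signal, calcium-binding and stress proteins. All 30 were in the table, and all 30 were among the 15385 genes with enough counts to be tested.

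Bulk RNA sequencing was performed on sciatic nerve from mice of genotype Nf1 flox/flox PostnCre+, in 24 libraries labelled with the tumor stage plexiform neurofibroma. The 4 groups of 6 libraries were compared after 1 week: LY3214996, an inhibitor of the kinases ERK1 and ERK2 (ERKi); abemaciclib, an inhibitor of CDK4 and CDK6 (CDKi); both inhibitors (combination); and vehicle. Every group, vehicle included, carried the floxed Nf1 alleles and the Cre transgene driven by the Postn promoter, so each comparison is between treatments of one genotype and none is with a nerve of another genotype. The labels state no age, sex or count of animals, and since nothing ties the libraries to separate animals, p-values speak of the spread among libraries, which may in part be technical.

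Myelin is a spiral of Schwann cell membrane rich in cholesterol and galactolipids, held together by a small set of abundant proteins and sealed along its edges by tight, gap and adherens junctions of the Schwann cell with itself. The programme is switched on by Sox10, by the POU factors Pou3f1 and Pou3f2, and then by Egr2, downstream of axonal neuregulin and of the ERK pathway. NF1 encodes neurofibromin, which turns RAS off, and plexiform neurofibromas arise from Schwann cells that have lost it.

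The letters of 5 member promoters are given, because the factors named above and the TEAD partners of YAP and TAZ are known to bind near myelin genes. Core letters of the 3 factor families were looked for on both strands in the 250 bases before each transcription start in the RefSeq promoter table (GRCm38.p6): ACAAAG for SOX, GTGGGCG for EGR and GGAATG for TEAD. No 2 of these cores overlap in the windows shown. Of the 30 genes, 20 matched the table, with 34 promoters among them. Each promoter is written 5′ to 3′ on the strand of its gene and ends at the base before the start site, and capitals mark the cores.
Gjb1 chrX:101383482-101383731 (+ strand): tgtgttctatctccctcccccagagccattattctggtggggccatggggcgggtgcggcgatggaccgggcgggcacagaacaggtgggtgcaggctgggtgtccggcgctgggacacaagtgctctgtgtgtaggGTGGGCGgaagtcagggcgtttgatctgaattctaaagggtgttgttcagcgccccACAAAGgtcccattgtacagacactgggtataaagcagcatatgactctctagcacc
Mag chr7:30914923-30915172 (- strand): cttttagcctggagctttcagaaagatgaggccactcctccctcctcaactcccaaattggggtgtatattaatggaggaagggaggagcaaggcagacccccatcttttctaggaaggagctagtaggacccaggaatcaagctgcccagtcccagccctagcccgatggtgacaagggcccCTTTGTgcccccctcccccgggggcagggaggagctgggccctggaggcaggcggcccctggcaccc
Cnp chr11:100574689-100574938 (+ strand): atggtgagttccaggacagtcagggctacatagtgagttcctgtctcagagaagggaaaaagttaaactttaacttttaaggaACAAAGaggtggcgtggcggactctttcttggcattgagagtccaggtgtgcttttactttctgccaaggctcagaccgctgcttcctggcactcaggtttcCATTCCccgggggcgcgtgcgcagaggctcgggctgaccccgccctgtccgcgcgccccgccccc
Pmp22 chr11:63128732-63128981 (+ strand): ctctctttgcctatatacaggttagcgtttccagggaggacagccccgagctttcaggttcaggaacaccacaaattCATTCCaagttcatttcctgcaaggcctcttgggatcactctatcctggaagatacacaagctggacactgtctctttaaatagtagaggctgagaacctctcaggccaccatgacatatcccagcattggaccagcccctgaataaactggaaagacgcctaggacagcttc
Cldn19 chr4:119255191-119255440 (+ strand): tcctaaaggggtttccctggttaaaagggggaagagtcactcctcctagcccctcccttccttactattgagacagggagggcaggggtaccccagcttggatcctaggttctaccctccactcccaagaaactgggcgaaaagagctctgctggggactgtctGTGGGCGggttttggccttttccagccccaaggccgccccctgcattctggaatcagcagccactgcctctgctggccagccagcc
Positions are those of the first base of a core on the strand of the gene. In this Gjb1 promoter, one of 4 in the table, the EGR core begins at -113 and the SOX core at -57 from the start site. The Mag promoter shown, one of 3, has a SOX core at -67 on the opposite strand. Cnp holds a SOX core at -167 and, on the opposite strand, a TEAD core at -65. The Pmp22 promoter shown, one of 4 in the table, holds a TEAD core at -173 on the opposite strand, and the other 3 hold none of the cores. The one shown for Cldn19 has an EGR core at -86. Over all 20 members, the SOX core stood in at least 1 promoter of 3 genes (15.0%), against 18.6% of the 27025 genes in the table and 16.5% of its 32851 promoters. The EGR core stood in 3 members (15.0%; Gjb1, Cldn19 and Cadm4), against 7.98% of all genes and 7.02% of promoters. The TEAD core stood in 7 members (35.0%; Pmp22, Mag, Prx, Mal, Cnp, Gjb1 and Gal3st1), against 14.4% of all genes and 12.6% of promoters. Counted by promoter, the SOX, EGR and TEAD cores stood in 5, 4 and 7 of the 34 member promoters. The Mag promoters with a SOX core overlap and share the same site, as do the Cldn19 promoters with an EGR core. Members had more promoters per gene (34 for 20) than the table as a whole (32851 for 27025), which can raise their share of genes. Such matches are descriptions of letters, and binding was not measured.

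Total counts ran between 5391543 and 42321550 per library. Some libraries stood apart by transcripts of other tissues before any comparison was made. ERKi 3, CDKi 1 and CDKi 3 held liver transcripts, with Alb at 4480, 3125 and 4475 CPM (counts scaled to library size), against at most 1.60 CPM in the other libraries. The summed neuron list (10 genes) was 7804 CPM in ERKi 3, and 52.0 to 491 CPM in vehicle 1, vehicle 5, CDKi 3, CDKi 5, combination 3 and combination 5, against 1489 to 4518 CPM elsewhere. The sum of 4518 CPM was that of combination 2, exceeded only by ERKi 3. No ERKi library was among those at 52.0 to 491 CPM, while each other group had some. The source of the neuronal transcripts was not tested. The summed skeletal muscle list (7 genes) was 877 CPM in CDKi 5 and at most 71.0 CPM elsewhere. In a bulk library, fewer Schwann cells and less RNA per Schwann cell cannot be told apart.

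Myelin genes stood lower after ERKi and after the combination in most members, but no member passed edgeR's test in any comparison. After ERKi, 29 of 30 members had a log2 fold change under 0, with a median of -0.32. After CDKi it was 23 of 30 with a median of -0.11, and after the combination 28 of 30 with a median of -0.30. Over all 15385 genes, 50.0%, 51.8% and 43.6% were lower in these 3 comparisons, with medians of 0.00, -0.01 and 0.04. With edgeR's quasi-likelihood test, 0 of 30 members had an adjusted p under 0.05 in each of them, where 0%, 0% and 0.123% of all genes did (0, 0 and 19 genes). At an unadjusted p under 0.05, 0 members were lower after ERKi (2.91% of all genes were), 0 after CDKi (0.910%) and 7 after the combination (6.58%). The 7 were Pmp2, Pou3f2, Cdh1, Gjc3, Dhh, S100b and Mag. The other tools made few calls among members: limma-voom called 0 in each comparison, and DESeq2 called 0 after ERKi, 0 after CDKi, and Pmp2 and Pou3f2 after the combination. The 3 comparisons share the vehicle libraries. Members rose and fell together by library, so the counts of members are not counts of independent observations. The mean log2 CPM of the 30 members had an SD of 0.46 between libraries of a group.

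**Figure D1:**
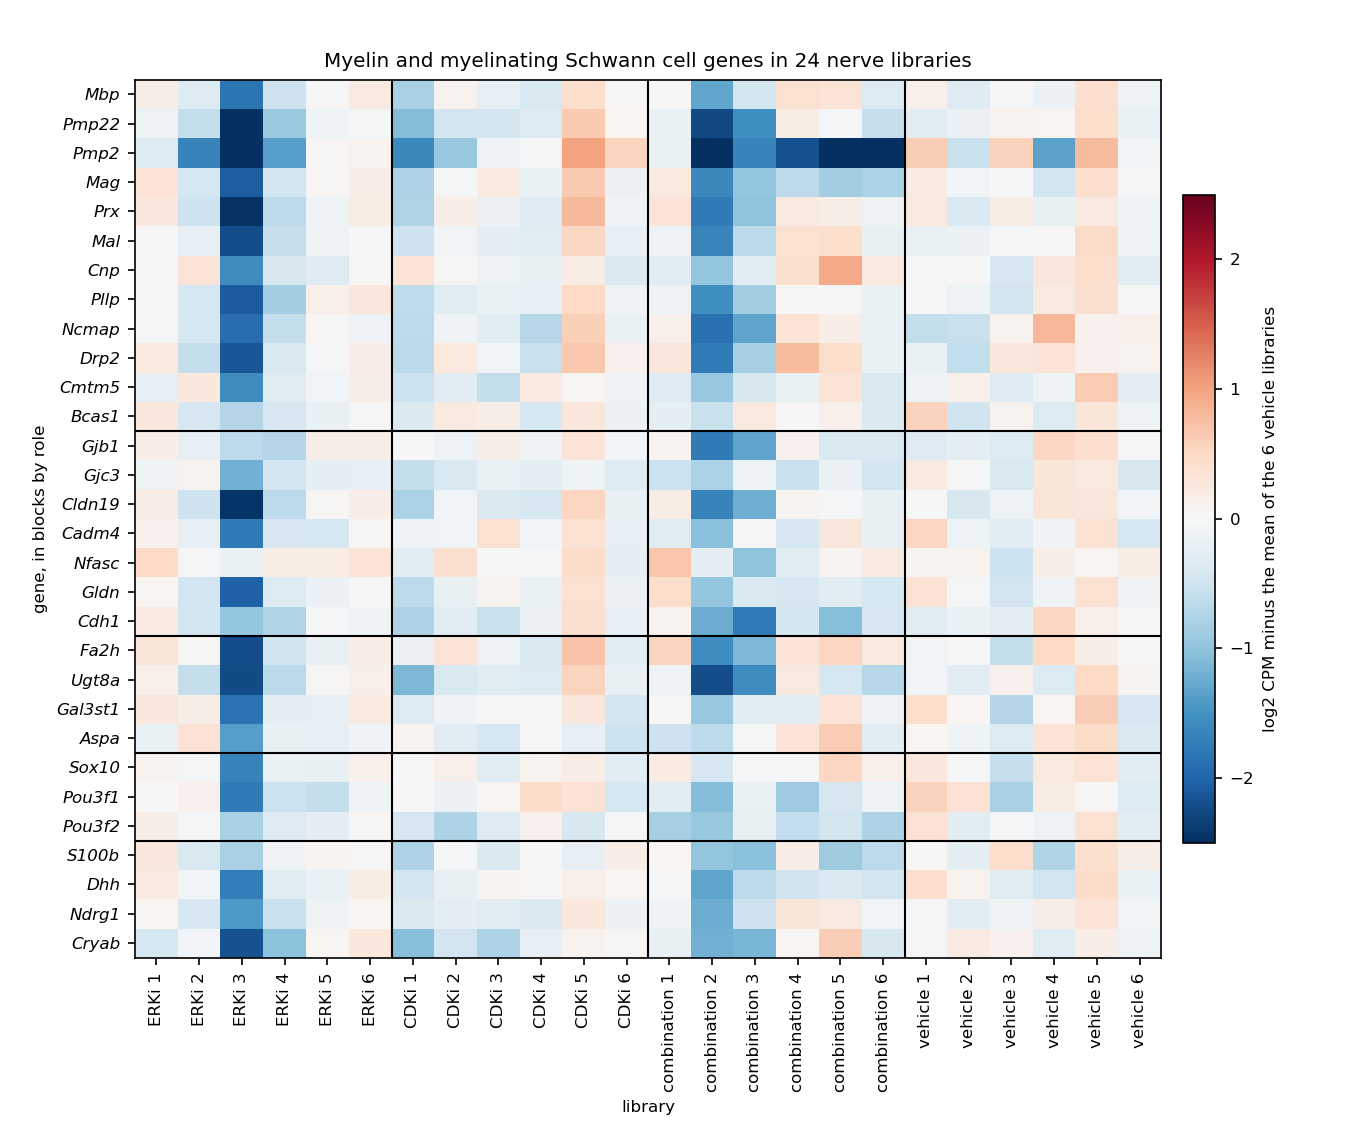
Level of each of the 30 genes (vertical axis, in blocks by role: structural, junction, lipid, transcription factor, signal) in each of the 24 libraries (horizontal axis), as log2 CPM minus the mean of the 6 vehicle libraries, with colours limited to 2.5 on either side. The columns of ERKi 3 and combination 2 are blue in nearly all rows, and the row of Pmp2 is blue in 5 combination libraries.

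A few libraries carried much of the low levels. ERKi 3 was the lowest of all 24 libraries for 24 of the 30 genes, with a mean member level of 6.74 log2 CPM. Combination 2 was among the 3 lowest for 29 genes, at 7.16, and combination 3 for 16 genes, at 7.74. The vehicle libraries ran between 8.31 and 8.83 on the same scale. Members also varied more within groups than most genes, with a median SD of 0.51 (log2) against 0.33 over all tested genes and 0.24 over the 5454 genes at least as highly expressed as the lowest member. CDKi 5 was the highest library for 10 members.

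Without ERKi 3, the median after ERKi was -0.14, still with 29 of 30 members under 0. With limma-voom, which gives less weight to libraries that stand apart, it was -0.10 with 27 members under 0. Without combination 2, the median after the combination was -0.17 with 24 members under 0, and 4 of them were lower at an unadjusted p under 0.05. Without the 6 libraries poor in neuronal transcripts it was -0.25 with 26 members under 0, and 2 were lower at that level. Without vehicle 5 it was -0.22, and 4 were. The number of genes called in that comparison was 0 without combination 2, 0 without combination 5, 54 without ERKi 3 and 94 without vehicle 4, against 19 with all libraries. The median after CDKi was 0.02 with the Schwann cell covariate described at the end, and 0.00 without vehicle 5. Without CDKi 5 it was -0.22, with all 30 members under 0. Of the 19 members described below by the range of their CPM values and a fold change, 17 moved nearer 0 by over 1.5 times after ERKi when ERKi 3 was left out, all but Cdh1 and Pmp2. After the combination 8 of the 19 moved by over 1.5 times without combination 2, and 2 of these changed sign. Among the 30 members, edgeR called none under any of those omissions.

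**Figure D2:**
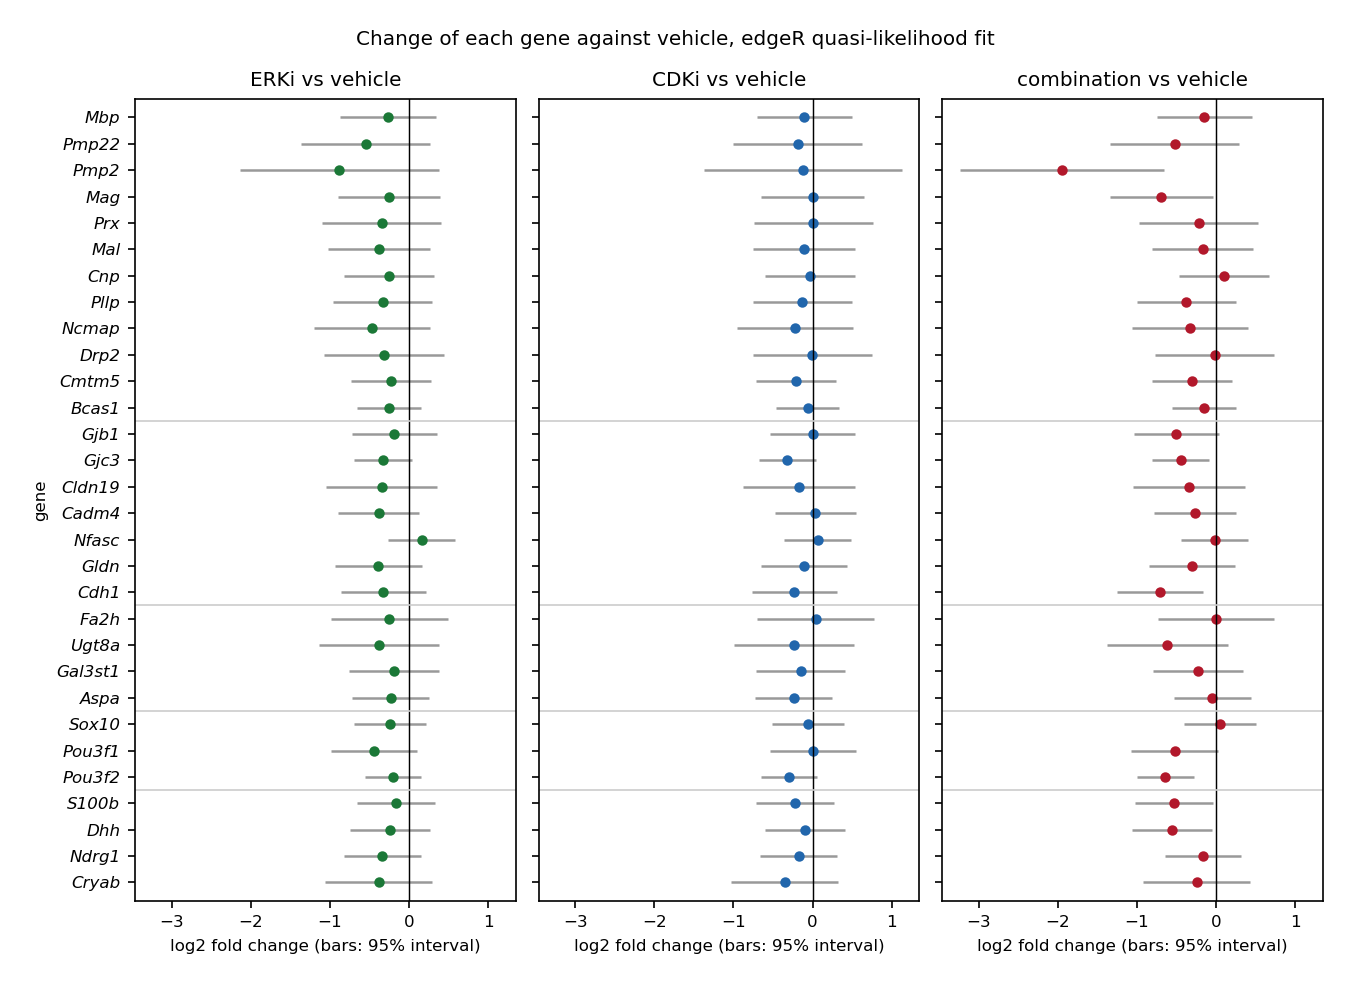
Log2 fold change of the 30 genes (points) with 95% intervals (bars) after ERKi, CDKi and the combination, each against vehicle, from the edgeR fit. After ERKi 29 points lie left of 0 and only Nfasc lies right of it, while after the combination 28 lie left of 0 and the interval of Pmp2 is the widest and farthest from 0.

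Among the 12 structural proteins, 12 stood lower after ERKi (median -0.32), 10 after CDKi (-0.11) and 11 after the combination (-0.26). None of the 12 passed edgeR's test, and DESeq2 called Pmp2 after the combination. Where 3 CPM values are given for a group here and in what follows, they are the lowest, the median and the highest of its 6 libraries. Mbp encodes myelin basic protein, which zips the cytoplasmic faces of the membrane together. Its level was 1516, 4854 and 6276 CPM after ERKi, 3071, 5071 and 7332 CPM after CDKi and 2194, 4788 and 6971 CPM after the combination, against 4324, 5195 and 7188 CPM in vehicle. ERKi 3, CDKi 1 and combination 2 were lowest in their groups, and at least 3 libraries of each treated group lay within the vehicle range or above it. Against vehicle the gene differed on the log2 scale by -0.27 ± 0.29 after ERKi, -0.10 ± 0.29 after CDKi and -0.15 ± 0.29 after the combination (SE; adjusted p = 0.737, 1 and 0.899), and the 95% interval for the combination was -0.75 to 0.46. It was -0.09 after ERKi without ERKi 3, and -0.01 after the combination without combination 2.

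Pmp22 encodes the tetraspan protein of compact myelin whose gene dosage underlies the commonest inherited neuropathy. It stood at 1043, 5602 and 6986 CPM after ERKi, 3334, 5417 and 11146 CPM after CDKi and 1486, 5559.5 and 8061 CPM after the combination, against 5955, 6889.7 and 9608 CPM in vehicle. At least 3 libraries of each treated group lay below the lowest vehicle library, namely ERKi 2, 3 and 4, CDKi 1, 2, 3 and 4, and combination 2, 3 and 6. In log2 units the difference was -0.55 ± 0.39 after ERKi, -0.19 ± 0.39 after CDKi and -0.52 ± 0.39 after the combination (adjusted p = 0.673, 1 and 0.658). Without ERKi 3 the ERKi value was -0.34.

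Mag encodes myelin-associated glycoprotein, an adhesion receptor of the innermost wrap that faces the axon. It was 19.8, 72.6 and 104 CPM after ERKi, 48.4, 76.8 and 129 CPM after CDKi and 26.96, 46.5 and 98.1 CPM after the combination, against 59.3, 80.5 and 109.6 CPM in vehicle. In all, 5 of 6 combination libraries lay below every vehicle library, and combination 1 lay within the vehicle range. The log2 fold change after the combination was -0.69 ± 0.31, a level 0.620 times that of vehicle, with a 95% interval of -1.34 to -0.04 (adjusted p = 0.389). It was -0.25 ± 0.31 after ERKi and 0.00 ± 0.31 after CDKi (adjusted p = 0.765 and 1), and the CDKi value turned to either side of 0 with the setting. Without the 6 libraries poor in neuronal transcripts the combination value was -0.42.

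Prx encodes periaxin, a scaffold that ties the outer myelin membrane to the basal lamina. It was 304, 1379 and 2045 CPM after ERKi, 1008, 1562 and 2957 CPM after CDKi and 494, 1713 and 2131 CPM after the combination, against 1297, 1751 and 2018 CPM in vehicle. ERKi 3 lay far below the rest of its group. Combination 2 was the lowest of its group, with combination 3 next at 848 CPM, while CDKi 5 was the highest of all 24. The fitted log2 difference came to -0.35 ± 0.36 after ERKi, 0.01 ± 0.36 after CDKi and -0.22 ± 0.36 after the combination (adjusted p = 0.728, 1 and 0.882). Without ERKi 3 it was -0.14 after ERKi, and without combination 2 it was -0.05 after the combination. Drp2, the dystrophin-related partner of periaxin, differed by -0.32 ± 0.36 after ERKi, 0.00 ± 0.36 after CDKi and -0.02 ± 0.36 after the combination.

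The other structural members had small differences, none past edgeR's test. Mal, a raft proteolipid, differed by -0.38 ± 0.31 after ERKi, and Pllp, its relative plasmolipin, by -0.33 ± 0.30. Ncmap, a protein of the noncompact wraps, differed by -0.46 ± 0.35. After the combination these 3 stood at -0.17 ± 0.31, -0.38 ± 0.30 and -0.33 ± 0.35. Cnp, the cyclic nucleotide phosphodiesterase of noncompact myelin, was the one structural gene above 0 after the combination, at 0.10 ± 0.27, with -0.25 ± 0.27 after ERKi. Its highest library was combination 5, at 1533 CPM, against 597, 786 and 1086 CPM in vehicle. Cmtm5, a MARVEL-domain membrane protein, and Bcas1, known from newly myelinating glia of the brain, stood at -0.30 ± 0.24 and -0.15 ± 0.19 after the combination. Across these 7 genes the CDKi differences lay between -0.22 for Ncmap and 0.00 for Drp2.

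The gene that stood out among the 30 was Pmp2, which encodes the fatty acid binding protein of peripheral myelin. It is described in full because its values stood out once they were seen. After ERKi it was 34.6, 228 and 411 CPM, after CDKi 127, 368 and 777 CPM and after the combination 25.2, 68.1 and 345 CPM, against 153, 471 and 667 CPM in vehicle. By library, combination 1 to 6 had 345, 49.0, 121, 85.0, 25.2 and 51.2 CPM. Of these 6, 5 lay below every vehicle library, and combination 1 lay within the vehicle range. The log2 fold change after the combination was -1.95 ± 0.62, a level 0.259 times that of vehicle, with a 95% interval of -3.24 to -0.66, and all 6 libraries lay under the vehicle mean. By edgeR the adjusted p was 0.191, while DESeq2 gave -1.95 ± 0.56 with an adjusted p of 0.0359 and limma-voom an adjusted p of 0.120. ERKi gave -0.88 ± 0.60 and CDKi -0.12 ± 0.60 (adjusted p = 0.672 and 1), and the combination differed from CDKi by -1.83 ± 0.62 (adjusted p = 0.439).

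Leaving out 1 library at a time put the Pmp2 value for the combination between -2.71 (without combination 1) and -1.74 (without combination 5). When the 6 libraries poor in neuronal transcripts were left out it came to -1.37 (adjusted p = 0.732). Low Pmp2 was not limited to libraries low in other myelin genes, since combination 4 and combination 5 had 6971 and 6794 CPM of Mbp, near the top of the vehicle range. Per 1000 CPM of Mbp in the same library, Pmp2 stood at 3.71, 17.3 and 64.9 CPM after the combination and 22.8, 45.8 and 73.4 CPM after ERKi, against 31.5, 83.2 and 107 CPM in vehicle. CDKi libraries stood at 34.9, 84.3 and 106 on that measure.

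**Figure D3:**
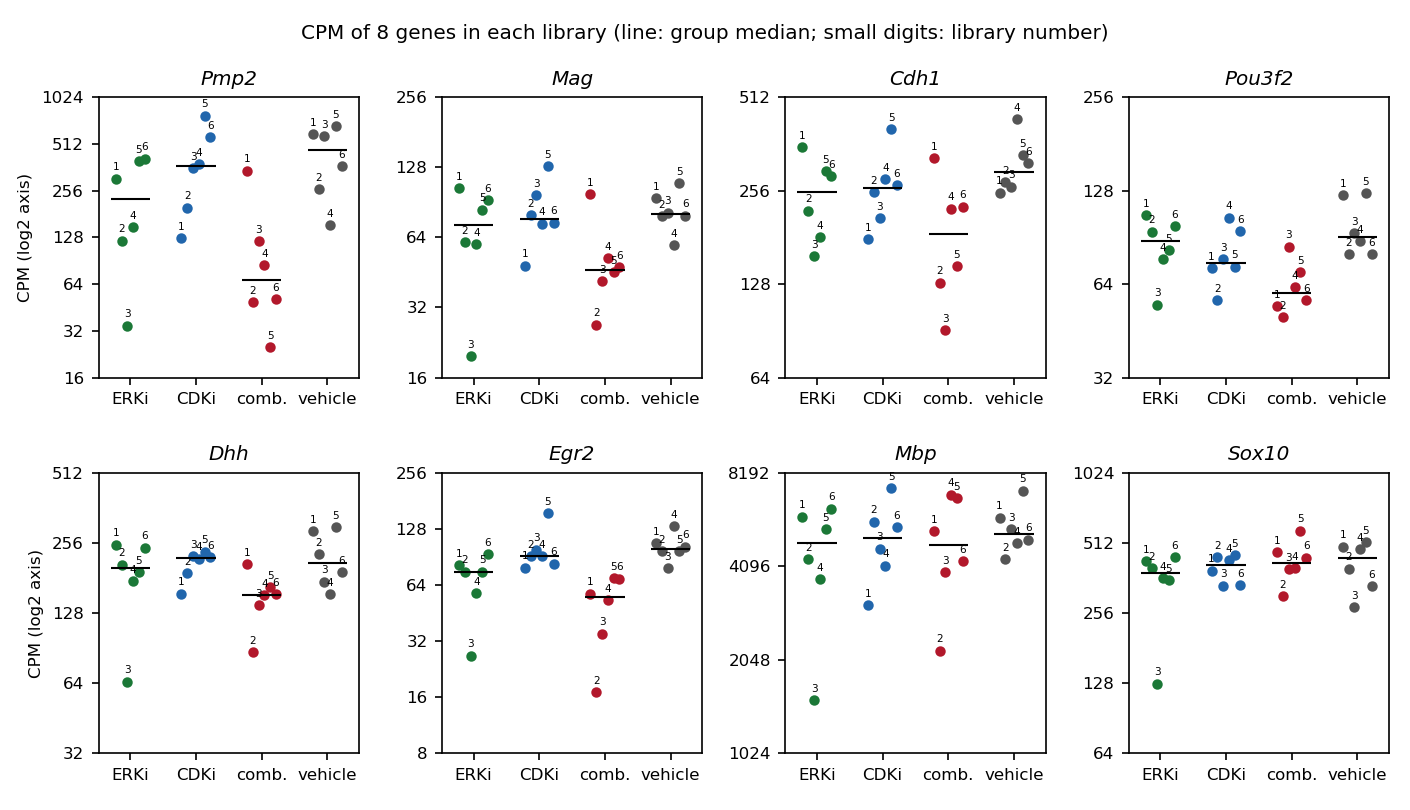
CPM of 8 genes in each library on a log2 axis, by group (ERKi, CDKi, combination, vehicle), with a line at the group median and the library number beside each point. Pmp2 is below 153 CPM in 5 of 6 combination libraries, all 6 combination points of Egr2 lie under all 6 vehicle points, and Mbp and Sox10 overlap across the 4 groups.

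Of the 7 junction and adhesion genes, 6 stood lower after ERKi (median -0.33), 4 after CDKi (-0.11) and 7 after the combination (-0.35), and none passed edgeR's test. Gjb1 encodes the connexin that forms gap junctions between myelin layers and is mutated in X-linked neuropathy. It was 26.9, 44.4 and 50.4 CPM after ERKi, 40.9, 44.1 and 56.6 CPM after CDKi and 13.1, 34.4 and 48.6 CPM after the combination, against 35.2, 41.0 and 64.7 CPM in vehicle. Combination 2, 3, 5 and 6 lay below every vehicle library, as did ERKi 3 and ERKi 4, and no CDKi library did. As log2 CPM minus the mean of the other members, Gjb1 was -1.97 in ERKi 3, -2.53 in CDKi 1 and -2.77 in CDKi 3. Vehicle libraries lay between -3.52 and -2.55 on that measure. ERKi 3, CDKi 1 and CDKi 3 held liver transcripts, and the part of liver RNA in the Gjb1 values was not tested. The log2 fold change was -0.18 ± 0.26 after ERKi, 0.00 ± 0.26 after CDKi and -0.50 ± 0.26 after the combination (adjusted p = 0.795, 1 and 0.469).

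Gjc3, another Schwann cell connexin, was 277, 338 and 434 CPM after the combination, against 362, 513 and 590.2 CPM in vehicle. Combination 1, 2, 4 and 6 lay below every vehicle library. The log2 fold change after the combination was -0.45 ± 0.17 with a 95% interval of -0.81 to -0.09 (adjusted p = 0.290). The values for ERKi and CDKi were -0.33 ± 0.17 and -0.32 ± 0.17. ERKi libraries held 206, 409 and 509 CPM and CDKi libraries 314, 393 and 442 CPM of it.

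Cdh1 encodes E-cadherin, the adhesion molecule of the autotypic adherens junctions of myelin. It was 157, 253 and 353 CPM after ERKi, 179, 260.3 and 404 CPM after CDKi and 91.0, 185 and 326 CPM after the combination, against 253, 293 and 436 CPM in vehicle. In all, 5 of 6 combination libraries lay below every vehicle library, with combination 1 the exception. Against vehicle the gene differed on the log2 scale by -0.32 ± 0.26 after ERKi, -0.23 ± 0.26 after CDKi and -0.71 ± 0.26 after the combination (adjusted p = 0.678, 1 and 0.249), and the interval for the combination was -1.25 to -0.17. Markers of epithelium, which also expresses Cdh1 (5 genes), summed to at most 8.89 CPM, in ERKi 3, one of the 3 libraries with liver transcripts. Liver cells express Cdh1 too, and their part in its values was not tested.

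Gldn encodes gliomedin, which Schwann cell microvilli display to gather sodium channels at nodes of Ranvier. It was 75.9, 262 and 322 CPM after ERKi, 196, 277 and 405 CPM after CDKi and 157, 236 and 419 CPM after the combination, against 221, 295 and 402 CPM in vehicle. ERKi 3 was the lowest of all 24, and combination 1 was above every vehicle library. In log2 units the difference was -0.39 ± 0.26 after ERKi, -0.11 ± 0.26 after CDKi and -0.31 ± 0.26 after the combination (adjusted p = 0.672, 1 and 0.722).

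Cldn19, the claudin of myelin tight junctions, differed by -0.35 ± 0.34 after ERKi, -0.18 ± 0.34 after CDKi and -0.35 ± 0.34 after the combination. Cadm4, which binds axonal adhesion molecules along the internode, differed by -0.38 ± 0.25, 0.04 ± 0.25 and -0.27 ± 0.25 in the same order. Nfasc encodes neurofascin, whose glial form sits at paranodes and whose neuronal form sits at nodes. It was the only member above 0 after ERKi, at 0.16 ± 0.20, with 0.07 ± 0.20 after CDKi and -0.02 ± 0.20 after the combination. The neuron list summed to 2179, 2705 and 7804 CPM after ERKi, 52.1, 2174 and 3249 CPM after CDKi and 80.7, 2608 and 4518 CPM after the combination, against 52.0, 1912 and 3154 CPM in vehicle, with 0 of its 10 genes called by edgeR. What part neuronal RNA had in the Nfasc values was not tested.

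Of the 4 lipid enzymes, 4 stood lower after ERKi (median -0.24), 3 after CDKi (-0.19) and 4 after the combination (-0.14), and none passed edgeR's test. Ugt8a makes galactosylceramide, the chief galactolipid of myelin. It was 120.1, 475 and 620.2 CPM after ERKi, 260.4, 452 and 835 CPM after CDKi and 121, 382 and 659.5 CPM after the combination, against 449, 569 and 801 CPM in vehicle. ERKi 3 and combination 2 were both near 120 CPM, and 4 combination libraries lay below every vehicle library. Its log2 fold change was -0.38 ± 0.37 after ERKi, -0.23 ± 0.36 after CDKi and -0.61 ± 0.37 after the combination (adjusted p = 0.712, 1 and 0.549).

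Fa2h adds the hydroxyl group carried by many myelin fatty acids. It was 23.8, 106 and 137 CPM after ERKi, 85.4, 101 and 184 CPM after CDKi and 38.0, 136 and 164 CPM after the combination, against 74.2, 112 and 157 CPM in vehicle. Combination libraries lay on both sides of the vehicle range, with combination 2 and 3 below it and combination 1 and 5 above it. Relative to vehicle it stood, on the log2 scale, at -0.25 ± 0.35 after ERKi, 0.04 ± 0.35 after CDKi and 0.00 ± 0.35 after the combination (adjusted p = 0.7997, 1 and 1).

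Aspa encodes aspartoacylase, which frees acetate from N-acetylaspartate. It was 59.7, 136 and 199 CPM after ERKi, 107, 131 and 165 CPM after CDKi and 97.4, 139.6 and 240.4 CPM after the combination, against 118, 152 and 212 CPM in vehicle. The group medians lay close together, and combination 5 was the highest of all. Fold changes on the log2 scale were -0.23 ± 0.23 after ERKi, -0.24 ± 0.23 after CDKi and -0.05 ± 0.23 after the combination (adjusted p = 0.724, 1 and 0.963). Gal3st1, which sulfates galactosylceramide to sulfatide, differed by -0.19 ± 0.27 after ERKi, -0.15 ± 0.27 after CDKi and -0.23 ± 0.27 after the combination.

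Of the 3 transcription factors, both POU factors stood lower after the combination and Sox10 lay near 0. None passed edgeR's test, and DESeq2 called Pou3f2 after the combination. Sox10 is needed at every stage of the Schwann cell lineage. It was 127, 381 and 445 CPM after ERKi, 336, 411 and 455 CPM after CDKi and 303, 421 and 579 CPM after the combination, against 272, 439.7 and 515 CPM in vehicle. ERKi 3, at 127 CPM, was the lowest of all 24 libraries, and vehicle 3, at 272 CPM, came next. Against vehicle the gene differed on the log2 scale by -0.24 ± 0.22 after ERKi, -0.06 ± 0.22 after CDKi and 0.05 ± 0.22 after the combination (adjusted p = 0.701, 1 and 0.956), with a 95% interval of -0.40 to 0.51 for the combination. Without ERKi 3 the ERKi value was -0.07.

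Pou3f2, also called Brn2, acts beside Pou3f1 in the promyelinating Schwann cell, and was singled out once its values were seen. It was 54.9, 88.4 and 107 CPM after ERKi, 56.7, 74.9 and 105 CPM after CDKi and 50.1, 59.8 and 84.5 CPM after the combination, against 79.9, 90.7 and 126 CPM in vehicle. All combination libraries other than combination 3 lay below every vehicle library, as did CDKi 1, 2, 3 and 5. The log2 fold change after the combination was -0.64 ± 0.17, a level 0.640 times that of vehicle, with a 95% interval of -1.001 to -0.28. Its adjusted p was 0.123 by edgeR, 0.0268 by DESeq2 and 0.0904 by limma-voom. ERKi gave -0.20 ± 0.17 and CDKi -0.30 ± 0.17 (adjusted p = 0.686 and 1). Leaving out 1 library at a time put the combination value between -0.75 and -0.56.

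Pou3f1, also called Oct6, peaks in Schwann cells about to myelinate. It was 12.3, 34.5 and 46.0 CPM after ERKi, 31.4, 42.9 and 58.3 CPM after CDKi and 19.9, 33.5 and 38.8 CPM after the combination, against 24.0, 46.0 and 63.2 CPM in vehicle. All 6 combination libraries lay under the vehicle mean, but only 2 lay under the lowest vehicle library. The log2 fold change was -0.44 ± 0.26 after ERKi, 0.01 ± 0.26 after CDKi and -0.53 ± 0.26 after the combination (adjusted p = 0.672, 1 and 0.454).

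The 4 signal, calcium-binding and stress genes stood lower in each treatment, with medians of -0.28 after ERKi, -0.20 after CDKi and -0.39 after the combination, and none passed edgeR's test. Dhh encodes Desert hedgehog, the Schwann cell ligand that organises the perineurium. It was 65.0, 199 and 252 CPM after ERKi, 155, 221 and 235 CPM after CDKi and 86.7, 154 and 208 CPM after the combination, against 155, 210.4 and 299 CPM in vehicle. Combination 2, 3 and 4 lay below every vehicle library, and combination 6 was level with the lowest of them, vehicle 4 (both 7.273 log2 CPM). The fitted log2 difference came to -0.23 ± 0.24 after ERKi, -0.09 ± 0.24 after CDKi and -0.56 ± 0.24 after the combination (adjusted p = 0.726, 1 and 0.355). Leaving out the 6 libraries poor in neuronal transcripts, the combination value was -0.33.

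S100b, the calcium-binding protein used to mark Schwann cells in tissue, was 324, 393 and 746 CPM after the combination, against 398, 707 and 909 CPM in vehicle. Combination 2, 3 and 5 lay below every vehicle library. After the combination the log2 difference was -0.53 ± 0.24 (adjusted p = 0.382), and -0.25 with the 6 libraries poor in neuronal transcripts left out. ERKi and CDKi gave -0.16 ± 0.24 and -0.22 ± 0.24.

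Ndrg1, mutated in a demyelinating neuropathy, was 654, 1483 and 1835 CPM after ERKi, 1376, 1488 and 2119 CPM after CDKi and 743, 1655 and 2184 CPM after the combination, against 1466, 1703 and 2227 CPM in vehicle. ERKi 3 and combination 2 were lowest, and the highest libraries of the 4 groups lay between 1835 and 2227 CPM. Fold changes on the log2 scale were -0.33 ± 0.23 after ERKi, -0.17 ± 0.23 after CDKi and -0.16 ± 0.23 after the combination (adjusted p = 0.672, 1 and 0.859).

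Cryab, a small heat shock protein abundant in myelinating Schwann cells, was 118, 452 and 638 CPM after ERKi, 255, 421 and 568 CPM after CDKi and 231, 436 and 814 CPM after the combination, against 433, 544 and 610.2 CPM in vehicle. Vehicle libraries lay in a narrow band, and the treated groups spread to both sides of it, except CDKi, which did not exceed it. Its log2 fold change was -0.38 ± 0.32 after ERKi, -0.35 ± 0.32 after CDKi and -0.25 ± 0.32 after the combination (adjusted p = 0.685, 1 and 0.843).

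Libraries low in one member tended to be low in most, so each gene was also set against the mean of the other 29 in the same library (log2 CPM minus that mean). After the combination the 5 genes farthest under their vehicle mean on this measure were Pmp2, at -1.93, Cdh1 at -0.38, Ugt8a at -0.37, Mag at -0.34 and Pmp22 at -0.29. Sox10 (0.53), Cnp (0.47), Aspa (0.37), Nfasc (0.37) and Bcas1 (0.32) lay farthest above it. The relative level of Pmp2 was -3.84, -1.81 and -0.01 after the combination, against -1.27, 0.37 and 0.89 in vehicle. That of Sox10 was 0.28, 0.77 and 1.11, against -0.23, 0.26 and 0.44 in vehicle, and the 2 ranges overlapped at their ends. After ERKi, Nfasc was 0.59 and Pmp2 -0.74 from the vehicle mean, and the other 28 lay between -0.36 (Pmp22) and 0.27 (S100b). After CDKi all 30 lay between -0.28 (Cryab) and 0.20 (Cadm4 and Nfasc). Because the measure is built from the members themselves, these differences are given without a test.

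**Figure D4:**
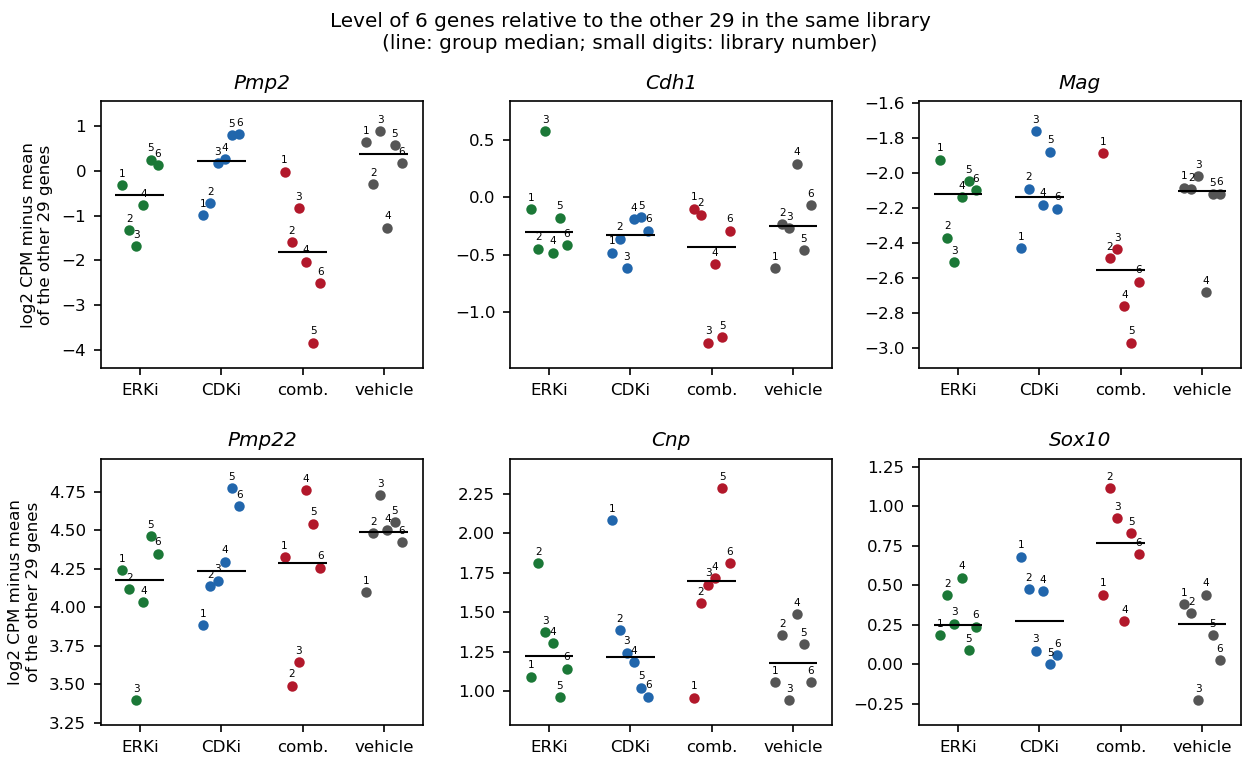
Log2 CPM of 6 genes minus the mean of the other 29 in the same library, by group, with a line at the group median and library numbers beside the points. Pmp2 runs down to -3.84 in the combination group, against -1.27 as the lowest vehicle library, while the median of Sox10 is 0.77 after the combination and 0.26 in vehicle.

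Levels were compared between genes per kilobase of annotated exon (GENCODE vM21), as group means with SD over 6 libraries. Pmp22 ranked 1 in every group, at 2096 ± 971 CPM per kilobase after ERKi, 2680.0 ± 1145 after CDKi and 2130.0 ± 1106 after the combination, against 3061 ± 562 in vehicle. Mbp ranked 2 at 643 ± 118 and S100b 3 at 468 ± 131 CPM per kilobase in vehicle, and both kept those ranks in the treated groups. Cryab (363 ± 47.0), Cadm4 (327 ± 90.7), Pmp2 (309 ± 146) and Prx (308 ± 54.3) followed in vehicle and do not differ beyond their spread. Pmp2 ranked 11 after ERKi, 6 after CDKi and 15 after the combination, where it stood at 80.1 ± 84.2 CPM per kilobase, against rank 6 in vehicle. At the low end, Mag, Pou3f2 and Nfasc lay between 17.4 and 20.6 CPM per kilobase in vehicle, and Pou3f1 was last in all groups, at 11.6 ± 3.71 in vehicle. Ranks rest on annotated exon length and not on the isoforms expressed.

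The 2-by-2 design allowed the factors to be taken over 12 libraries against 12. For the ERKi main effect, 29 of 30 members lay under 0 (median -0.25, where 46.0% of all genes lay under 0) and 5 were lower at an unadjusted p under 0.05 (5.85% of all genes were). That count was 2 without combination 2, 3 without each of ERKi 3, ERKi 4, CDKi 5, vehicle 1 and vehicle 5, and 8 without each of ERKi 1, vehicle 3 and vehicle 6. It was 1 without the 6 libraries poor in neuronal transcripts. These 5 were Pmp2 (-1.36 ± 0.43, adjusted p = 0.300), Pou3f1 (-0.48 ± 0.18), Mag (-0.47 ± 0.22), Cdh1 (-0.40 ± 0.18) and Pou3f2 (-0.27 ± 0.12). For the CDKi main effect 21 lay under 0 (52.5% of all genes did) with a median of -0.07, which was 0.01 with 14 under 0 without combination 2 and -0.15 with 26 under 0 without ERKi 3. Pou3f2 alone was lower there at an unadjusted p under 0.05, as were 2.80% of all genes (-0.37 ± 0.12, adjusted p = 0.454). The combination against ERKi split the members 15 to 15 (median 0.01; 51.6% of all genes lay under 0), with Pou3f2 lower at an unadjusted p under 0.05 (-0.44 ± 0.17), as 3.61% of all genes were. The combination against CDKi had 25 members under 0 (median -0.15; 43.8% of all genes), with Pmp2 and Mag (-0.69 ± 0.31) lower at that level, near the share of all genes that were (4.71%). That median was -0.05 with 19 under 0 without CDKi 5, -0.05 with 18 without combination 2, and -0.29 with 26 without combination 1. Without ERKi 3 the median of the combination against ERKi was -0.20, and without combination 2 it was 0.19. The interaction had a median of 0.15 (-0.04 without ERKi 3) with 10 members under 0 (50.2% of all genes), and 0 members lower at an unadjusted p under 0.05 (2.09%). By edgeR 0 of 30 members were called in these 5 comparisons and in the test of any difference among the 4 groups, where 2 had an unadjusted p under 0.05 (8.14% of all genes did), and DESeq2 and limma-voom also called 0 members in each. The shares of all genes called by edgeR were 0% for either main effect, the interaction, the combination against ERKi and the test of any difference, and 0.00650% (1 gene) for the combination against CDKi.

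Genes of the same pathway outside the 30 were read from lists written with earlier results of these data known. Of 29 tested myelin proteins and regulators of myelination, 24 lay under 0 after ERKi (median -0.18), 20 after CDKi (-0.03) and 15 after the combination (-0.07). By edgeR 0 of the 29 were called in each of the 3, and 2, 0 and 4 were lower at an unadjusted p under 0.05, as 2.91%, 0.910% and 6.58% of all genes were. Egr2 was 17.01, 55.4 and 69.9 CPM after the combination, against 78.7, 100.0 and 133 CPM in vehicle. The 2 groups did not overlap, which held for 0.578% of all tested genes in that direction and for 0 of the 30 members. In log2 units the difference was -1.03 ± 0.28 after the combination (edgeR adjusted p = 0.132). It was -0.58 ± 0.28 after ERKi (adjusted p = 0.672), where all 6 libraries lay under the vehicle mean, and -0.03 ± 0.28 after CDKi. The ERKi main effect on Egr2 was -0.79 ± 0.20 (adjusted p = 0.207).

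Of 24 tested genes listed as brakes of myelination and repair genes, edgeR called 1 higher and 1 lower after the combination, where it called 0.123% of all genes. None was called after either drug alone. After the combination 15 lay above 0 and 9 under it (43.6% of all genes lay under 0). At an unadjusted p under 0.05, 3 were lower (6.58% of all genes were), and Atf3 alone was higher. Atf3, a factor that Schwann cells and neurons induce after nerve injury, was higher at 16.5, 27.7 and 38.0 CPM after the combination, against 7.48, 9.05 and 14.2 CPM in vehicle (1.42 ± 0.26, adjusted p = 0.0362). Egr3, counted in this list, is an early gene of the ERK pathway and a relative of Egr2. Egr3 was lower at 1.58, 7.41 and 12.3 CPM after the combination, against 19.8, 30.9 and 48.5 CPM in vehicle (-2.28 ± 0.44, adjusted p = 0.0362). Left out 1 at a time, 12 of the 24 libraries took the call of Atf3 away and 15 that of Egr3, each combination and vehicle library other than combination 1 and 3 and vehicle 4 taking both. Adjusted p stayed at or under 0.110 there, and was 0.518 for Atf3 and 0.331 for Egr3 without the 6 libraries poor in neuronal transcripts. DESeq2 and limma-voom called both. Jun, the driver of the repair Schwann cell, differed by 0.09 ± 0.15 after the combination. Ngfr, the low-affinity neurotrophin receptor of immature and repair cells, differed by 0.25 ± 0.32 after the combination and 0.56 ± 0.32 after ERKi. Its highest libraries were ERKi 3 (227 CPM) and combination 2 (197 CPM). It was lowest in the 6 libraries poor in neuronal transcripts, at 45.5 to 67.9 CPM. What part neuronal RNA had in the Ngfr values was not tested.

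Myelin also draws on cholesterol and fatty acid synthesis. Of 25 tested supply genes, 18 lay under 0 after ERKi (median -0.06), 14 after CDKi (-0.02) and 19 after the combination (-0.26). By edgeR 0 were called, and 5 were lower at an unadjusted p under 0.05 after the combination (6.58% of all genes) and 0 after either drug alone (2.91% for ERKi and 0.910% for CDKi). Genes of oligodendrocytes, the myelinating cells of the brain, were low: of 8 listed, 4 had enough counts to be tested, and none exceeded 9.49 CPM (Hapln2) in any library. Mog did not exceed 0.356 CPM and Opalin 0.398 CPM, while Olig2 reached 6.55, Myrf 4.63 and Mobp 3.10 CPM.

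Markers of Schwann cells as a whole (Erbb3, Cdh19 and Gpr37l1) summed to 624, 1509 and 2304 CPM after ERKi, 1479, 1752 and 1968 CPM after CDKi, and 1281, 1770 and 3487 CPM after the combination, against 1344, 1871 and 2433 CPM in vehicle. After ERKi 3 of 3 lay under 0 (median -0.37), and after the combination 1 of 3 did (median 0.09). With the mean of these 3 genes as a covariate, the median of the myelin members was -0.09 after ERKi, with 23 of 30 under 0, and -0.23 after the combination, with 26 of 30 under 0. The neuron list stood higher in 10 of 10 genes after ERKi (median 1.01) and after the combination (0.37), with 0 called. With its mean as a covariate the member median was -0.18 after ERKi and -0.27 after the combination. Nerve fibroblast and perineurial markers (7 genes) summed to 3636, 8350 and 10862 CPM after ERKi and 4846, 7587 and 12278 CPM after the combination, against 9745, 12607 and 15298 CPM in vehicle. CDKi libraries held 8485, 10821 and 16617 CPM of them. Of these 7 genes, 1 stood higher after ERKi (median -0.65), 2 after CDKi (-0.15) and 1 after the combination (-0.58), with 0 called. Slc2a1 went the other way from the sum after the combination, at 98.8 to 176 CPM against 52.7 to 111 CPM in vehicle. Adipocyte markers stood higher in 9 of 9 genes in each comparison (medians 1.10 after ERKi, 1.87 after CDKi and 0.95 after the combination), with 0 called. They summed to 33.2, 161 and 228 CPM after ERKi, 97.02, 156 and 321 CPM after CDKi and 45.9, 117 and 186 CPM after the combination, against 21.9, 41.2 and 126 CPM in vehicle. Endothelial markers (5 genes) were above 0 in 4 after ERKi (median 0.09), 4 after CDKi (0.27) and 5 after the combination (0.80), with 0 called, and summed to 116, 158 and 335 CPM after the combination, against 75.9, 112 and 146 CPM in vehicle. The 7 skeletal muscle markers stood higher in 6 after ERKi, 7 after CDKi and 6 after the combination, with 0 called. Satellite glia markers (6 genes) were above 0 in 2 after ERKi (median -0.10), 3 after CDKi (-0.07) and 2 after the combination (-0.19). Macrophage markers (6 genes) were above 0 in 1, 0 and 2 in the same order (medians -0.22, -0.16 and -0.12). In both lists 0 were called. The part of satellite glia in the Schwann cell markers was not tested. No gene of these lists was at 0 in every library of a group. The part of these tissue differences in the myelin values was not tested beyond those covariates.

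**Figure D5:**
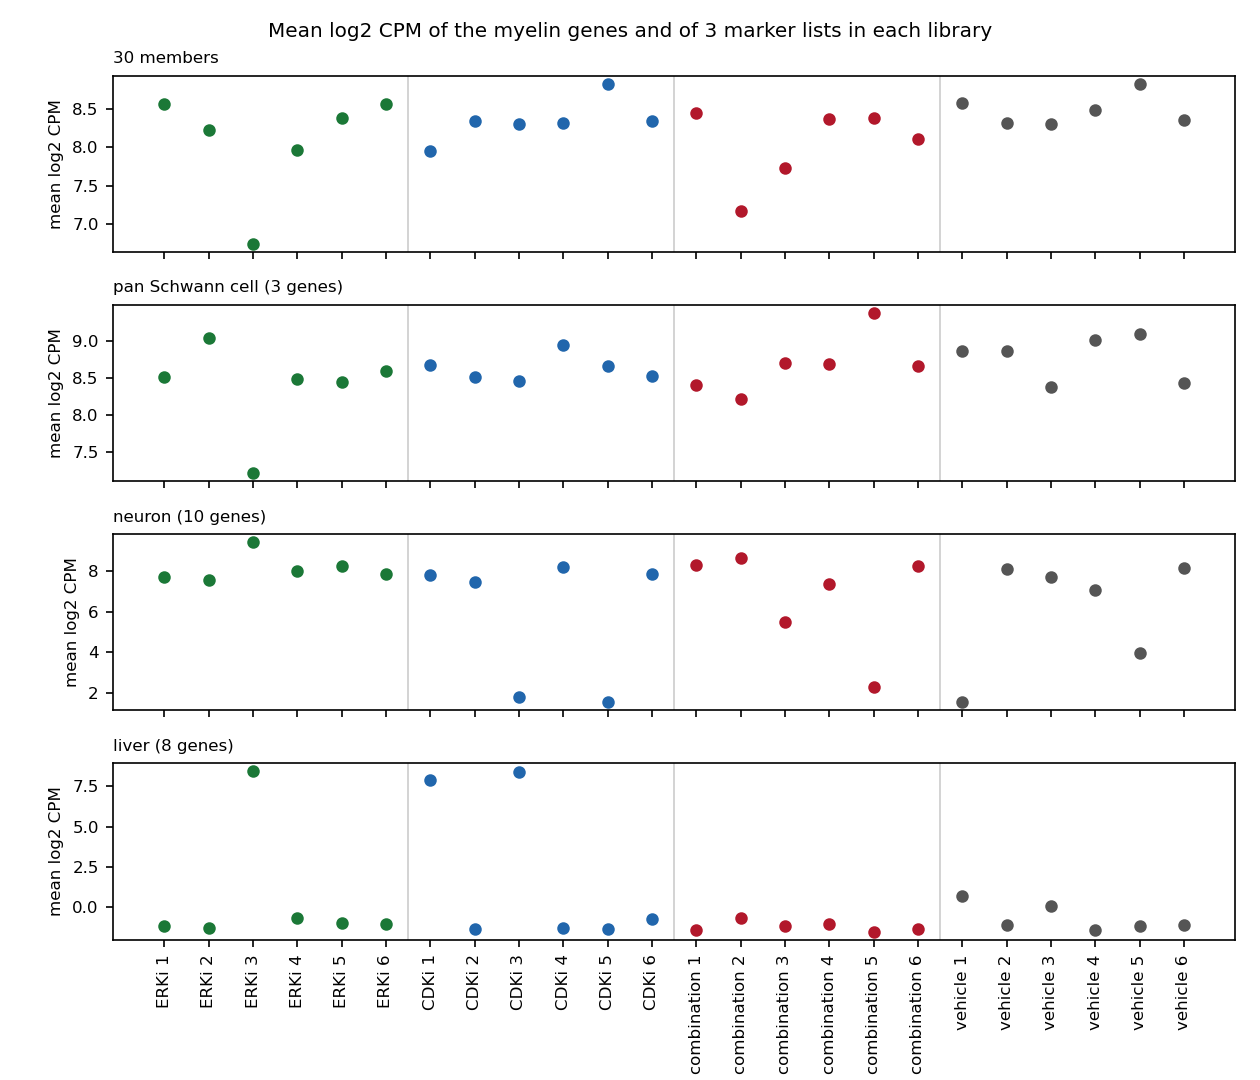
Mean log2 CPM of the 30 genes, of 3 pan Schwann cell markers, of 10 neuron markers and of 8 liver markers (panels) in each of the 24 libraries (horizontal axis, ordered and coloured ERKi, CDKi, combination, vehicle). ERKi 3 is the lowest library for the myelin genes, at 6.74, and has the highest neuron markers and raised liver markers. Combination 2 is low for the myelin genes, at 7.16, and has the next highest neuron markers, without liver markers.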

How the data were processed

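Whole sciatic nerve was sequenced in 24 libraries, 6 in each of 4 groups assigned by the treatment label. Per the labels' protocols, total RNA was isolated with the RNeasy Plus Mini kit and made into libraries with the KAPA RNA HyperPrep and QIAseq FastSelect rRNA removal kits, while the molecule label reads polyA RNA. The submitters' processing notes name FastQC, STAR, DESeq2 and the build mm10. For versions, counter, annotation and strandedness, no statement was found (not given in the sources used here). Reads shared with paralogs or antisense genes therefore cannot be told apart. The authors deposited raw counts per gene. No column of the table was left unmapped (0).

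The members and lists were chosen with earlier results of these data known. Counts were analysed with edgeR 4.0.16 in R 4.3.3: filterByExpr (minimum count 10, minimum total 15) kept 15385 of 24421 genes, TMM scaled the libraries, and the quasi-likelihood test was run on 1 fit of all 4 groups with 20 residual degrees of freedom and Benjamini-Hochberg adjustment at 0.05. CPM used TMM library sizes, and log2 CPM a prior count of 2. Alternatives were limma 3.58.1 (voom with quality weights), DESeq2 1.42.0, other scalings and filters, covariates, and libraries left out. The scripts were tested on simulated data. Total counts were 5391543 to 42321550 per library, so 3 counts, taken as the floor of detection, cover counting error only. The 60 pairs of libraries within groups differed beyond sampling noise (lowest chi-square per degree of freedom 18.86), so none was counted as a duplicate.

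All 30 members are named. Full values were to be given for 15 of them and for any with an edgeR adjusted p under 0.05 in any comparison, which none had; of the other lists, 3 genes and any gene called. Some genes of these lists are not reported here, and list counts and the Schwann cell marker mean leave them out. Pmp2, Pou3f2, Gjc3 and S100b were singled out after their values were seen. Promoters came from RefSeq and exon lengths from GENCODE vM21, matched by symbol.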

Additional observations from a re-analysis of the deposited data

Results flagged for a closer look

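Within each group of 6 libraries, the gap between the most extreme library and its nearest neighbour was divided by the range of the group, for each of the 30 genes, and set against Dixon's critical value. In 20 of 120 gene-by-group sets a library stood apart, where chance alone sets apart about 1 in 20. Genes of 1 library are not independent, so these counts describe few libraries.

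ERKi 3 stood apart at the low end for 17 genes. Among structural proteins the ratios were 0.634 for Mbp, 0.672 for Pmp22, 0.665 for Mag, 0.662 for Prx, 0.734 for Mal, 0.675 for Ncmap, 0.648 for Drp2 and 0.688 for Cmtm5. Among junction genes they were 0.686 for Cldn19, 0.71 for Cadm4 and 0.74 for Gldn. Among lipid enzymes they were 0.688 for Fa2h, 0.657 for Ugt8a, 0.758 for Gal3st1 and 0.668 for Aspa. The ratio was 0.819 for the transcription factor Sox10 and 0.732 for the ligand Dhh. The same library held liver transcripts and the highest neuron list, and their part in these values was not tested.

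Combination 2, lowest of its group for 26 genes, stood apart for 0 of them. The other 3 sets were Ndrg1 with CDKi 5 high (0.674), Mal with vehicle 5 high (0.755) and Nfasc with vehicle 3 low (0.804).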

How the results depend on the processing

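No paired analysis was possible because the labels give no replicate numbers, and the numbers used here only name libraries in accession order. Across the alternatives run, the member median stayed under 0 after ERKi (-0.35 to -0.09), after the combination (-0.32 to -0.23) and for the ERKi main effect (-0.27 to -0.12). Leaving out 1 library at a time gave -0.41 to -0.14, -0.42 to -0.17 and -0.31 to -0.18. Calls among the 30 members were 0 under every alternative other than DESeq2, which called Pmp2 and Pou3f2 after the combination. Alternatives for Pmp2, Pou3f2, Gjc3, S100b, Atf3 and Egr3 were chosen after seeing the data. Library titles are numbers that begin with 4 or 5, and what this marks is not stated. After ERKi 4 and 2 libraries had these first digits and in vehicle 2 and 4, with 3 and 3 in the other groups. With this title number series as a covariate the member median after ERKi was -0.21, and 2 members rather than 5 were lower at an unadjusted p under 0.05 for the ERKi main effect. The fit on only the groups compared was not run for the main effects and the interaction, which need all 4 groups.

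The number of genes called moved widely, and the cause was not tested. DESeq2 called 2 genes after ERKi, 30 after CDKi, 262 after the combination, 35 for the combination against ERKi, 78 against CDKi, 48 for the interaction, 89 for the ERKi and 23 for the CDKi main effect, and 166 for any difference. Limma-voom called 29 after the combination, 4 against ERKi, 4 against CDKi, 5 for the ERKi main effect and 6 for any difference. With no filter on low counts there were 1 after CDKi and 6 after the combination, and with only the groups compared 10 after the combination and 0 against CDKi. The neuron covariate gave 1 after CDKi and 38 after the combination. The pan Schwann covariate gave 36 after the combination, 5 against CDKi, 1 for the ERKi main effect and 15 for any difference. Without the liver-positive libraries there were 108 after the combination, 1 for the ERKi main effect and 1 for any difference, and without the neuron-poor libraries 0 after the combination and 0 against CDKi. Leaving out 1 library gave 0 to 3 genes after CDKi, 0 to 94 after the combination, 0 to 1 against ERKi, 0 to 6 against CDKi, 0 to 1 for the interaction, 0 to 6 for the ERKi main effect and 0 to 48 for any difference. After the combination the 19 moved by over 1.5 times without each of ERKi 1, 3 and 4, CDKi 4, 5 and 6, combination 1, 2, 4, 5 and 6, and every vehicle library.

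Some small log2 fold changes, none called, changed sign. Mag after CDKi was -0.001 with DESeq2, -0.001 with RLE scaling, -0.005 with upper quartile scaling, 0 with the CPM filter, -0.102 with limma-voom, -0.05 with the neuron covariate and -0.105 without the neuron-poor libraries. With limma-voom, Sox10 was 0.027 after ERKi and 0.056 after CDKi, Prx -0.089 and Fa2h -0.017 after CDKi, and Fa2h 0.032 after the combination. Fa2h after the combination was also 0.005 with no filter, 0.016 with the title number covariate, 0.029 with the neuron covariate, 0.098 with the pan Schwann covariate and 0.046 without the neuron-poor libraries. With the neuron covariate, CDKi values were -0.045 for Prx, -0.012 for Fa2h, -0.015 for Gjb1 and 0 for Pou3f1. With the pan Schwann covariate, ERKi values were 0.068 for Fa2h, 0.118 for Aspa and 0.073 for Sox10, CDKi values 0.029 for Mbp, 0.014 for Gldn, 0.036 for Dhh and 0.111 for Sox10, and Aspa was 0.026 after the combination. Without the liver-positive libraries, CDKi values were 0.06 for Mbp, 0.03 for Pmp22, 0.15 for Pmp2, 0.012 for Sox10 and -0.017 for Gjb1. Without the neuron-poor libraries, Dhh was 0.008 and Pou3f2 0.002 after ERKi, and CDKi values were -0.091 for Prx, -0.12 for Fa2h, -0.077 for Gjb1, 0.121 for Sox10 and 0.084 for Dhh. Leaving out 1 library gave, after CDKi, -0.166 to 0.026 for Dhh, -0.122 to 0.161 for Fa2h, -0.055 to 0.131 for Gjb1, -0.148 to 0.119 for Mag, -0.222 to 0.008 for Mbp, -0.397 to 0.071 for Pmp2, -0.106 to 0.138 for Pou3f1, -0.195 to 0.127 for Prx and -0.141 to 0.03 for Sox10. After the combination it gave -0.222 to 0.057 for Aspa, -0.132 to 0.173 for Fa2h and -0.05 to 0.129 for Sox10.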
